A study of Drosophila melanogaster with 20 samples.

Results

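Fragments of 10 glial genes were followed through small RNA libraries made from sorted cells of Drosophila melanogaster embryos. The genes were listed by symbol (repo, gcm, gcm2, loco, moody, wrapper, Eaat1, Gs2, nrv2 and Gli) and matched by gene identifier, and they make up 10 of the 17559 features counted in each library. Each of the 10 had a row in all 20 libraries and each passed the filter on low counts. A small RNA library holds short RNA molecules, so a count here is a count of short fragments lying in the exons of a gene, and it is not the level of that gene's mRNA.

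In the fly embryo, glial fate is switched on by the transcription factor gcm, with its close relative gcm2, and gcm turns on repo, a homeodomain factor that stays on in nearly all glia outside the midline. Glia then take on subtypes. Surface glia seal the blood-brain barrier with septate junctions and with signalling through the receptor moody and the regulator loco, while other glia wrap neurons and clear the transmitter glutamate from around synapses. Here gcm, gcm2 and repo are grouped as early determinants, and the other 7 are grouped as later subtype and barrier genes. The grouping is by role and not by the levels measured. Of the 7, loco and wrapper had their highest mean level in repo-positive cells at 6-8 h.

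Embryos were taken 6-8 h (the early stage) or 18-22 h (the late stage) after egg laying, dissociated to single cells, fixed with formaldehyde, stained with an antibody and sorted. The repo sort, which the labels call enriched glia, and the elav sort, on a marker of neurons, were made at both stages. The pros sort, on prospero, was made at 6-8 h alone. Each sort gave a marker-positive and a marker-negative fraction, so there were 10 groups of 2 libraries, called biological duplicates in the labels. The labels name no genotype, transgene or drug, and all groups share the fixation, the staining and the reversal of crosslinks before RNA extraction. A negative fraction holds the cells of the embryo that were not stained, not a defined cell type.

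Total counts ran from 6863042 to 24501421 per library, and counts outside microRNA hairpins from 3994804 to 13402457. Ribosomal RNA took 25.6% to 36.0% of the latter and protein-coding genes 9.53% to 21.4%. Replicate libraries of a group correlated at 0.882 to 0.950 across genes. The elav-positive library of replicate 2 at 6-8 h stood apart, with 70156 hairpin counts and the highest scaling factor, 1.73. Levels below are CPM, the count of a gene scaled to a fixed total of non-hairpin counts, scaled between libraries by the trimmed mean method (TMM). Differences are log2 fold changes with their standard error, and a gene was called at an adjusted p under 0.05 over the 11726 genes tested. With 2 libraries a group, p-values measure the spread between these libraries, pooled over all groups. Fewer glial cells in a fraction and less of an RNA per cell cannot be told apart in such bulk samples.

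**Figure D1:**
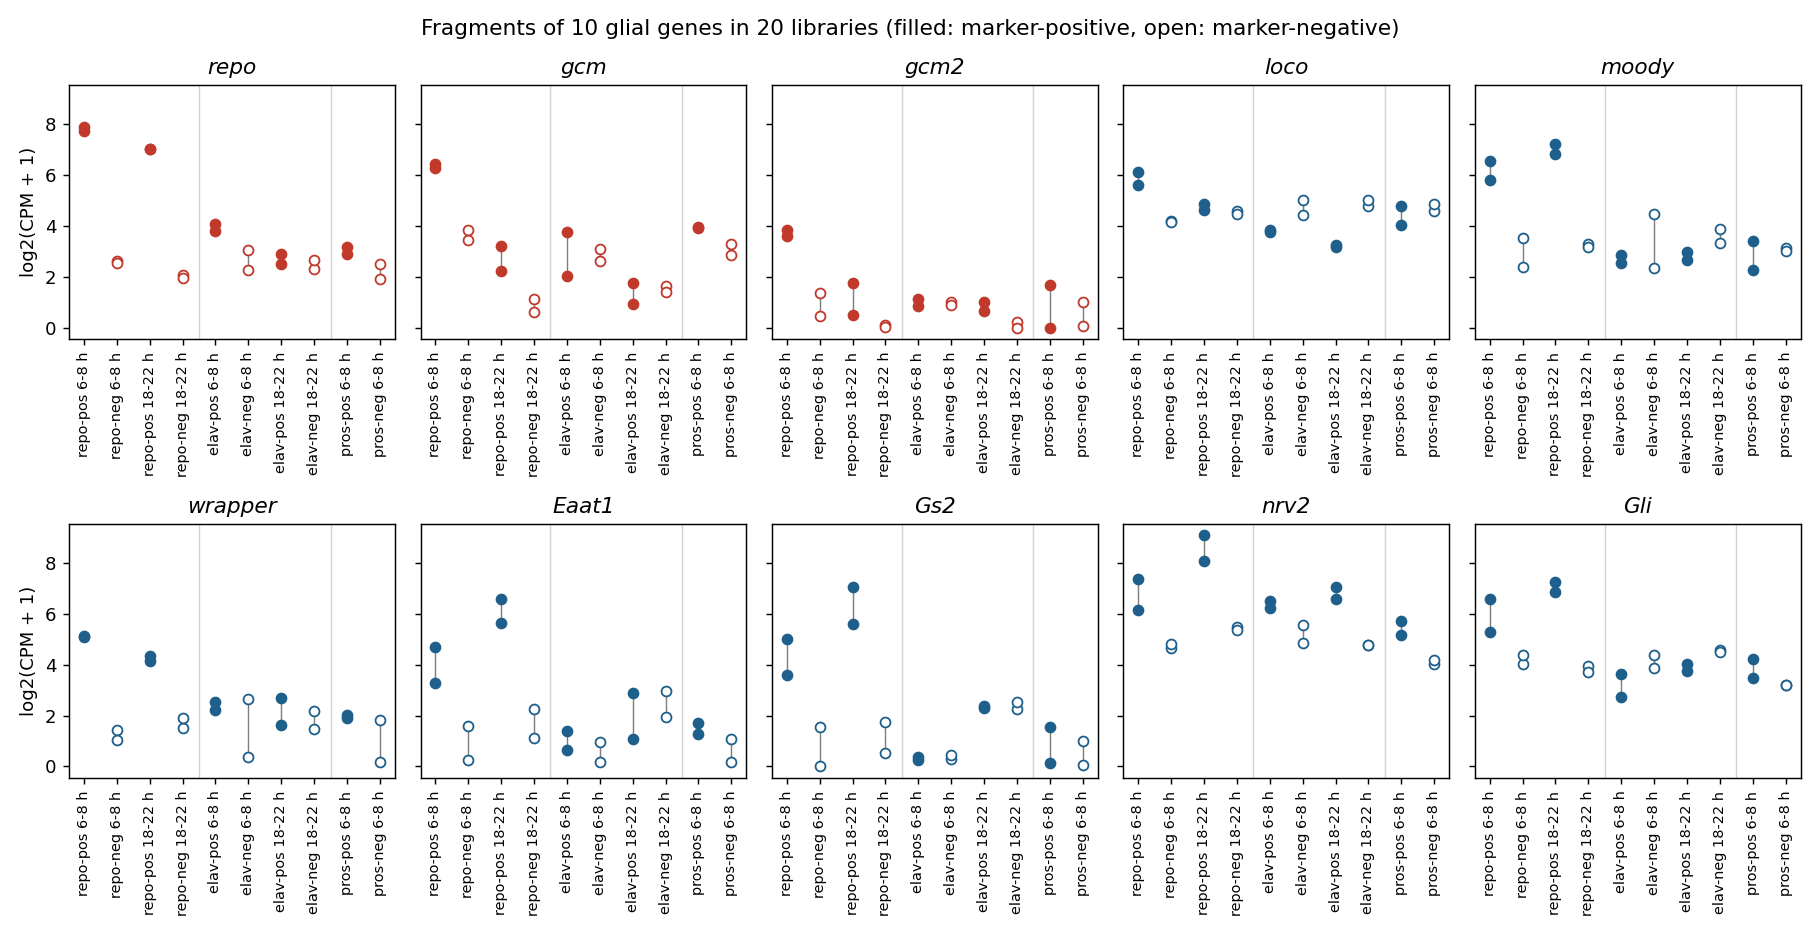
Level of each gene in the 20 libraries, as log2(CPM + 1) on the vertical axis, with 1 point for each library, filled for marker-positive and open for marker-negative fractions. The filled repo-sort points lie above the open repo-sort points in all 10 panels at 6-8 h and in all 10 at 18-22 h. How many of all genes are separated like that was not counted.

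All 10 genes had their highest mean level in a repo-positive group. In the early repo sort, 9 of the 10 were higher in the positive fraction and none was lower, where 2.38% of all genes were called higher and 3.36% in either direction. At 18-22 h, 7 of the 10 were higher and none lower, where 1.44% of all genes were called higher and 2.31% in either direction. The median difference of the 10 was 3.43 at 6-8 h and 3.64 at 18-22 h, and that of all genes tested was -0.0043 and -0.12. In both stages the repo-positive libraries lay above the repo-negative libraries for each of the 10 genes. That held even for loco at 18-22 h, at a difference of 0.25 (edgeR adjusted p = 0.887). The share of all genes separated in this way was not counted, so it adds nothing for the genes not called.

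The gene repo, on which the sort was made (FBgn0011701), lies on chromosome 3R at 18236192 to 18239602 in the authors' build (BDGP6, equal to dm6). It checks the labels of the repo sort. Its level was 210.1 and 235 CPM in the repo-positive libraries at 6-8 h and 5.20 and 4.78 in the repo-negative ones. The late values were 130.1 and 131 CPM against 3.18 and 2.83 CPM. Every repo-positive library stood far above every other library of the series, and the groups did not overlap. The difference was 5.49 ± 0.35 early (adjusted p = 1.11e-07) and 5.44 ± 0.36 late (adjusted p = 1.38e-07), and both calls held when each of the 20 libraries was left out in turn.

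The gene gcm (FBgn0014179, chromosome 2L, 9579498 to 9581745) encodes the transcription factor that starts glial fate, and it also acts in embryonic blood cells. Its level in repo-positive cells was 85.6 and 76.5 CPM at 6-8 h and 3.68 and 8.25 CPM at 18-22 h. The repo-negative libraries gave 9.996 and 13.2 CPM early and 1.18 and 0.515 CPM late. The repo-positive libraries were the higher at each stage, and the late libraries were below the early ones in both fractions. The difference between fractions was 2.81 ± 0.54 early (adjusted p = 0.00748) and 2.78 ± 0.67 late (adjusted p = 0.0246). The early call ended without repo-negative replicate 1 (2.62, adjusted p = 0.122) or replicate 2 (3.02, adjusted p = 0.0864). The late call ended without repo-positive replicate 2 (2.10, adjusted p = 0.32), repo-negative replicate 1 (3.5, adjusted p = 0.109) or repo-negative replicate 2 (2.27, adjusted p = 0.339). Its exons share 128 bases on the same strand with CG31709, where a read would count for both genes.

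The gene gcm2 (FBgn0019809) lies 26816 bases from gcm on chromosome 2L, at 9608562 to 9612706, and acts together with it. It was the weakest of the 10. Its level was 11.1 and 13.4 CPM in repo-positive cells at 6-8 h against 1.58 and 0.385 CPM in repo-negative cells. The late levels were 0.423 and 2.38 CPM against 0.0765 and 0.0121 CPM. The groups did not overlap at either stage, and the test passed at neither. The difference at 6-8 h was 3.54 ± 1.34 (adjusted p = 0.204), and it was called when fitted on these libraries alone (3.59, adjusted p = 0.0162). At 18-22 h it rested on 19 rounded counts against 1, a depth-adjusted ratio of 26.0 with an exact 95% interval of 4.13 to 1080 that covers counting error only (edgeR adjusted p = 0.316).

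Signalling genes of the surface glia came next. The gene moody (FBgn0025631, chromosome X, 2044292 to 2050120) encodes a G protein-coupled receptor of the barrier glia. It gave 54.9 and 92.3 CPM in repo-positive cells at 6-8 h against 4.29 and 10.6 CPM in repo-negative cells. Late libraries gave 149 and 112 CPM against 8.82 and 7.97 CPM. The fractions were well separated at both stages, with the wider spread at 6-8 h. Its difference was 3.31 ± 0.56 early (adjusted p = 0.00313) and 3.95 ± 0.54 late (adjusted p = 0.000811). The early call ended without repo-negative replicate 1 (2.80, adjusted p = 0.0818), and the late call held without any library.

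The gene loco (FBgn0020278, chromosome 3R, 22619968 to 22639387) encodes a regulator of G protein signalling, and it was called in the early repo sort but not in the late one. In repo-positive cells it gave 47.6 and 67.9 CPM at 6-8 h but 23.7 and 28.4 CPM at 18-22 h. In repo-negative cells it gave 17.6 and 16.8 CPM at 6-8 h and 22.8 and 21.1 CPM at 18-22 h. The fractions were thus clearly apart at 6-8 h and nearly met at 18-22 h. The difference was 1.75 ± 0.34 early (adjusted p = 0.0067) and 0.25 ± 0.34 late (adjusted p = 0.887). The change in that difference between stages was -1.50 ± 0.48 and did not pass the test (adjusted p = 0.283), so the fractions were not shown to differ less at the late stage. The early call ended without repo-positive replicate 2 (1.47, adjusted p = 0.114), repo-negative replicate 1 (1.78, adjusted p = 0.0996) or repo-negative replicate 2 (1.71, adjusted p = 0.113).

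Of the genes for contact and junctions, wrapper (FBgn0025878, chromosome 2R, 22379637 to 22382675) encodes an adhesion protein of the immunoglobulin family on glia that wrap axons and neurons. Its level was 32.9 and 34.5 CPM in repo-positive cells at 6-8 h against 1.68 and 1.07 CPM. Late libraries gave 16.9 and 19.4 CPM against 1.86 and 2.74 CPM. Replicates lay close together in the repo-positive fractions and no groups overlapped. The difference was 4.63 ± 0.92 at 6-8 h (adjusted p = 0.00958). At 18-22 h it was 2.98 ± 0.85 and was not called (adjusted p = 0.104), although DESeq2 called it (adjusted p = 0.0165). The early call ended without repo-positive replicate 2 (4.6, adjusted p = 0.0505), repo-negative replicate 1 (4.96, adjusted p = 0.103) or repo-negative replicate 2 (4.37, adjusted p = 0.145).

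The gene Gli (FBgn0001987, chromosome 2L, 15756002 to 15762758) encodes Gliotactin, a transmembrane protein of the corners where cells with septate junctions meet, in glia and in epithelia. It gave 37.8 and 94.2 CPM in repo-positive cells at 6-8 h against 15.3 and 19.7 CPM. The late values were 153 and 114 CPM against 14.5 and 12.2 CPM. Repo-positive replicate 2 at 6-8 h was well above replicate 1, and both were above the negative fraction. The difference was 1.91 ± 0.41 early (adjusted p = 0.0126) and 3.32 ± 0.41 late (adjusted p = 0.000238). Without repo-positive replicate 2 the early value was 1.1 (adjusted p = 0.355), and that call also ended without repo-negative replicate 1 (1.74, adjusted p = 0.185) or replicate 2 (2.10, adjusted p = 0.105). The late call held without any library.

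The gene nrv2 (FBgn0015777, chromosome 2L, 6789770 to 6798862) encodes a beta subunit of the sodium pump that also builds septate junctions. In repo-positive cells it gave 69.5 and 166 CPM at 6-8 h and 546 and 273 CPM at 18-22 h. In repo-negative cells it gave 24.5 and 26.9 CPM at 6-8 h and 43.6 and 40.1 CPM at 18-22 h. The negative fraction was tight, the positive fraction spread by more, and they did not overlap. The difference was 2.20 ± 0.40 early (adjusted p = 0.0041) and 3.29 ± 0.39 late (adjusted p = 0.00019). The early call ended without repo-positive replicate 2 (1.43, adjusted p = 0.13), repo-negative replicate 1 (2.13, adjusted p = 0.0818) or repo-negative replicate 2 (2.26, adjusted p = 0.0711). The late call held without any library.

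The transmitter genes were Eaat1 (FBgn0026439, chromosome 2L, 9333567 to 9341925), a transporter that takes up glutamate, and Gs2 (FBgn0001145, chromosome X, 11422832 to 11430197), a glutamine synthetase that converts it. Eaat1 gave 8.82 and 25.2 CPM in repo-positive cells at 6-8 h against 2.04 and 0.203 CPM, and 96.1 and 49.6 CPM at 18-22 h against 3.79 and 1.18 CPM. Gs2 gave 11.1 and 30.8 CPM at 6-8 h against 1.94 and 0 CPM, and 133 and 47.1 CPM at 18-22 h against 2.36 and 0.434 CPM. Both genes were low outside repo-positive cells, and in repo-positive cells the higher replicate was replicate 2 at 6-8 h and replicate 1 at 18-22 h. The difference for Eaat1 was 3.92 ± 1.00 early (adjusted p = 0.0341) and 4.85 ± 0.88 late (adjusted p = 0.00807). For Gs2 it was 4.42 ± 1.05 (adjusted p = 0.0212) and 6.01 ± 0.94 (adjusted p = 0.00246). Their means over the 10 groups ran side by side, with a Pearson correlation of log2 level of 0.988.

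Both pairs of calls leaned on particular libraries. At 6-8 h, Eaat1 was not called without repo-positive replicate 2 (2.98, adjusted p = 0.298), repo-negative replicate 1 (6.67, adjusted p = 0.0634), repo-negative replicate 2 (3.04, adjusted p = 0.312) or repo-positive replicate 1 of 18-22 h (3.92, adjusted p = 0.0633). Gs2 was not called without repo-positive replicate 2 (3.5, adjusted p = 0.195) or repo-negative replicate 2 (3.45, adjusted p = 0.216). At 18-22 h, Eaat1 was not called without repo-positive replicate 1 (4.28, adjusted p = 0.104), repo-negative replicate 1 (5.89, adjusted p = 0.0629) or repo-negative replicate 2 (4.24, adjusted p = 0.148). Gs2 was not called without repo-positive replicate 1 (5.05, adjusted p = 0.06) or repo-negative replicate 2 (5.21, adjusted p = 0.0652).

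**Figure D2:**
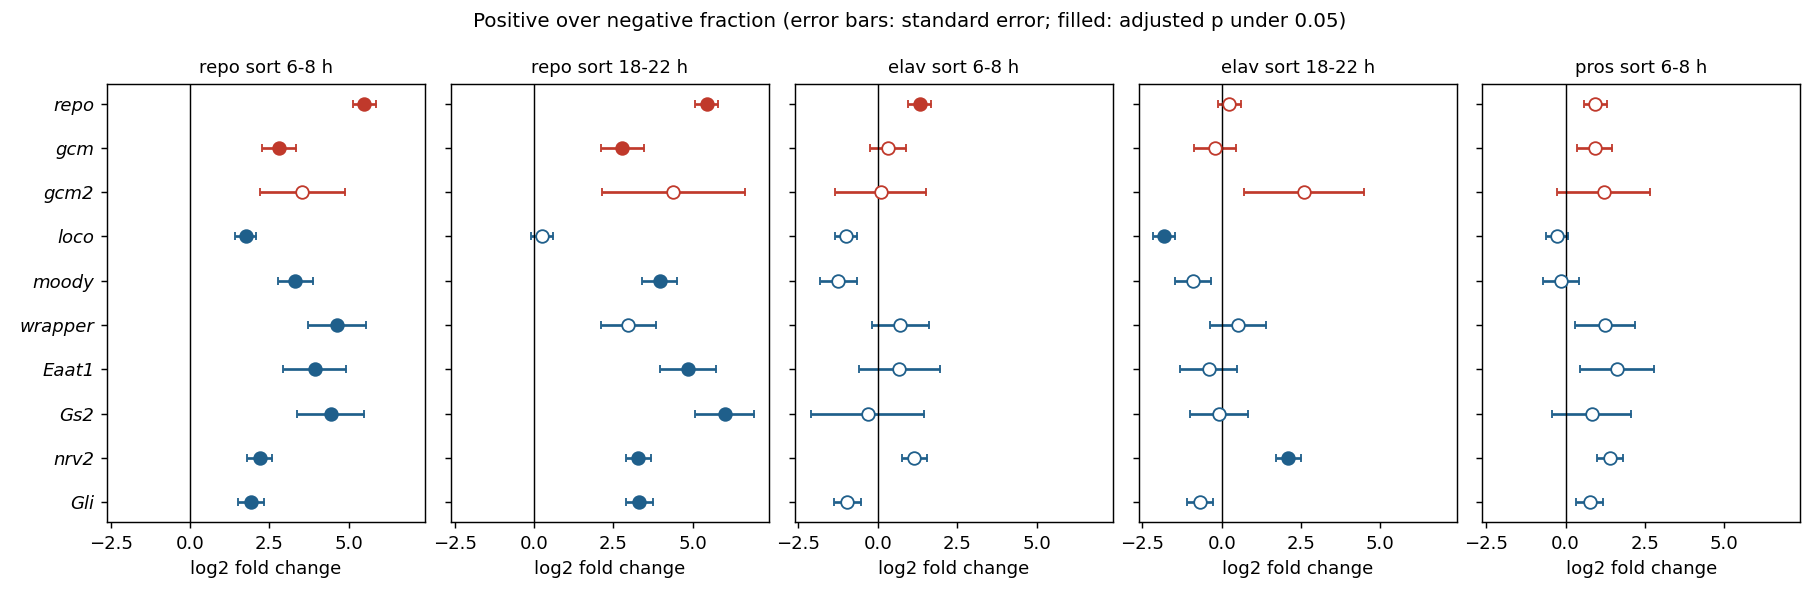
Difference between marker-positive and marker-negative cells for each gene in the 5 sorts, as log2 fold change on the horizontal axis with bars for the standard error and filled points for an adjusted p under 0.05. In the repo sort, 9 points are filled at 6-8 h and 7 at 18-22 h, and in the other sorts 1, 2 and 0. The wide bars of gcm2 belong to counts near 0.

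Over the 10 genes, the early count of 9 dropped to 3 without repo-positive replicate 2 (repo, gcm and moody), and to 2 without either repo-negative library. The late count of 7 dropped to 5 when replicate 1 of either fraction was left out, and to 4 when repo-negative replicate 2 was. In each such fit the lone library left in its group was assumed to vary like the other groups.

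Stage was compared within each fraction. In repo-positive cells 1 of the 10 genes was lower at 18-22 h than at 6-8 h and 1 was higher, against 3.7% of all genes called in either direction. The gene gcm fell by 3.77 ± 0.55 (adjusted p = 0.00153), a call that held without any library. The gene nrv2 rose by 1.8 ± 0.39 (adjusted p = 0.0149). That rise was not called without repo-positive replicate 1 of 6-8 h (1.31, adjusted p = 0.156) or of 18-22 h (1.21, adjusted p = 0.261), when scaled by total count (1.56, adjusted p = 0.0634), or when fitted on these libraries alone (1.83, adjusted p = 0.0596).

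For the other 8 genes the stage difference did not pass the test. Early and late libraries of repo-positive cells did not overlap for any of the 10. The share of all genes without overlap was not counted, so this adds nothing to the uncalled differences. Of the early determinants, repo gave -0.77 ± 0.33 (adjusted p = 0.214) and gcm2 -3.11 ± 1.31 (adjusted p = 0.24). Of the later genes, Eaat1 gave 2.09 ± 0.83, Gs2 2.10 ± 0.83, Gli 1.01 ± 0.41 and moody 0.83 ± 0.53. On the other side of 0 were loco at -1.15 ± 0.34 (adjusted p = 0.066) and wrapper at -0.89 ± 0.81. DESeq2 called the fall of loco (-1.09, adjusted p = 0.0314). With no filter, edgeR called the rises of Eaat1 (2.19, adjusted p = 0.0274) and Gs2 (2.21, adjusted p = 0.0222). The median was -3.11 over the 3 early determinants and 1.01 over the 7 later genes, with -0.07 over all genes tested. Whether the early determinants and the later genes differ in their stage change was not tested. Fitted on these libraries alone, gcm2 (-3.08, adjusted p = 0.0349) and Eaat1 (2.12, adjusted p = 0.0353) were called.

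Markers of other cells also moved between stages in repo-positive cells, where 3.7% of all genes were called in either direction. Of 12 neuron markers 4 were higher at the late stage and none lower, with a median of 1.19. Of 10 hemocyte markers 3 were higher and of 8 muscle markers 3, none lower, while of 9 neuroblast markers 5 were lower and none higher. Summed levels of the neuron markers were 265 and 275 CPM early and 407 and 456 CPM late. Those of the hemocyte markers were 39.0 and 44.8 CPM early and 366 and 208 CPM late, of muscle markers 137 and 169 CPM early and 331 and 328 CPM late, and of neuroblast markers 164 and 194 CPM early and 88.7 and 112 CPM late. In repo-negative, elav-positive and elav-negative cells, 9, 3 and 6 neuron markers were higher late, none lower. Hemocyte markers had 5, 3 and 4 higher, none lower, and neuroblast markers 3, 3 and 4 lower, none higher. Muscle markers had 4, 2 and 4 higher and 1, 0 and 2 lower. Of all genes, 11.4%, 3.02% and 12.2% were called in these fractions, in either direction. The part of these other cells in the stage changes of the 10 glial genes, nrv2 included, was not tested.

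Repo-negative cells showed the same size of fall in gcm, by 3.75 ± 0.66 (adjusted p = 0.00096), which held without any library. It was the only one of the 10 genes called there, where 11.4% of all genes were called. In elav-positive cells gcm gave -2.27 ± 0.62 and was not called (adjusted p = 0.0511). It was called by DESeq2 (-2.22, adjusted p = 0.00982), with no filter (-2.27, adjusted p = 0.0123), with total-count scaling (-2.59, adjusted p = 0.0175) and with unrounded values (-2.26, adjusted p = 0.0462). Without 1 library it ran from -3.14 to -0.91. The gene repo fell by 1.39 ± 0.35 (adjusted p = 0.0369), the only call where 3.02% of all genes were called. That fall of repo was not called in 13 of the 20 fits without 1 library, whose adjusted p ran from 0.0343 to 0.396. In elav-negative cells edgeR called 0 of the 10, with 3 at an unadjusted p under 0.05 and 0 by DESeq2, against 12.2% of all genes. There gcm gave -1.73 ± 0.62 (adjusted p = 0.0753). On the other side of 0 were Gs2 at 3.63 ± 1.46 (adjusted p = 0.068) and Eaat1 at 2.97 ± 1.19 (adjusted p = 0.0853). Their early levels there were low, at 0.212 and 0.372 CPM for Gs2 and 0.128 and 0.969 CPM for Eaat1. In elav-positive cells Gs2 gave 3.87 ± 1.37 and was not called (adjusted p = 0.0929), from 0.195 and 0.308 CPM early.

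**Figure D3:**
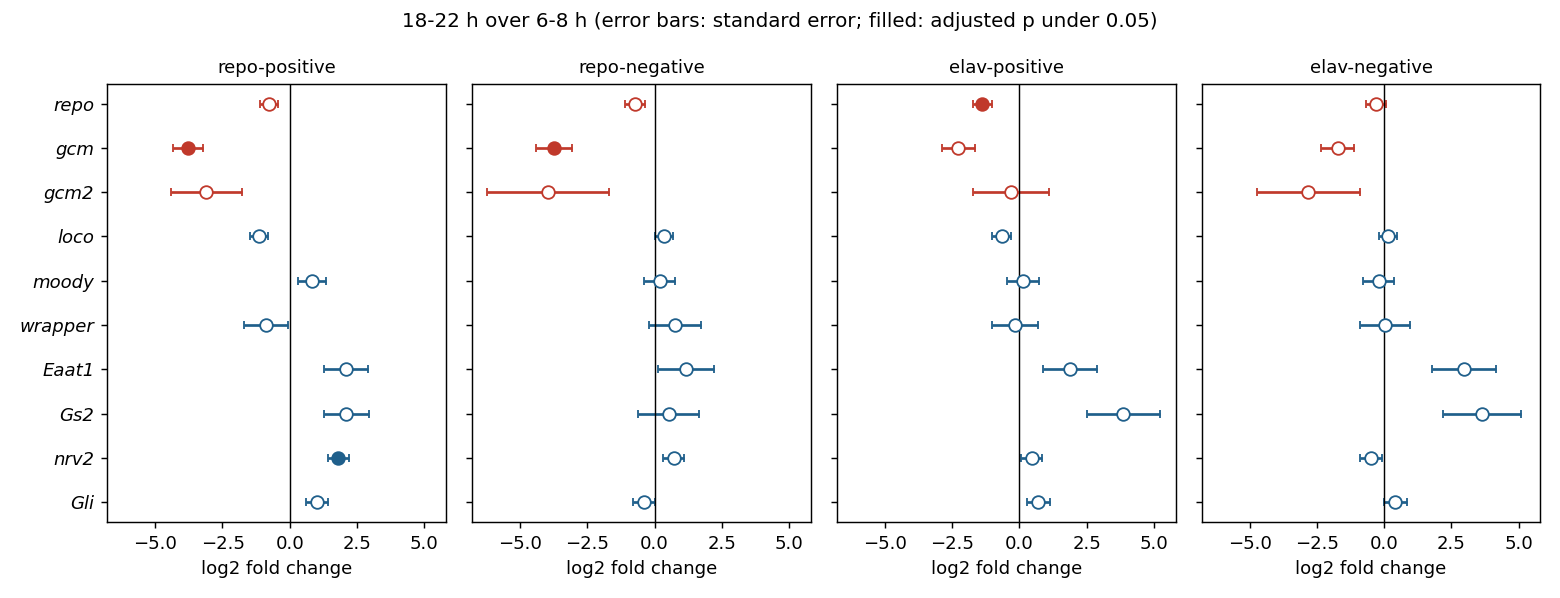
Difference between 18-22 h and 6-8 h in 4 fractions, as log2 fold change on the horizontal axis with bars for the standard error and filled points for an adjusted p under 0.05. The points of gcm lie left of 0 in all 4 panels, from -3.77 in repo-positive to -1.73 in elav-negative cells, and are filled in both fractions of the repo sort.

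The change in the repo-sort difference between stages was called for 0 of the 10 genes by edgeR, with 2 at an unadjusted p under 0.05 and 0 by DESeq2, against 0.0853% of all genes. For gcm it was -0.03 ± 0.86 and for repo -0.05 ± 0.50. The change in the elav-sort difference was also called for 0 of the 10, with 1 at an unadjusted p under 0.05 and 0 by DESeq2, against 1.14% of all genes.

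Levels of different genes can be compared per kilobase of exon. On that scale repo led in repo-positive cells at 6-8 h, with a mean of 74.2 CPM per kb, followed by gcm with 37.3 and nrv2 with 33.0. At 18-22 h nrv2 led with 114.7 CPM per kb, followed by repo with 43.6, Gs2 with 40.4 and moody with 33.1, while gcm stood at 2.74 and gcm2 at 0.603. The early determinants made up 61.2% and 46.2% of the summed level per kb of all 10 genes in the repo-positive libraries at 6-8 h. At 18-22 h they made up 12.2% and 21.2%. The early and late shares did not overlap, and repo itself carried most of what remained, with 11.7% and 19.1%. The share of the early determinants was also lower late in the other fractions sorted at both stages, again without overlap. It went from 30.4% and 30.9% to 6.42% and 5.42% in repo-negative cells. In elav-positive cells it went from 29.6% and 15.4% to 4.44% and 8.89%, and in elav-negative cells from 22.85% and 15.8% to 8.92% and 9.76%.

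The replicates of the repo-positive groups were also compared gene by gene. At 6-8 h the ratio of replicate 2 to replicate 1 was above 1 for all 7 later genes, from 1.05 for wrapper to 2.86 for Eaat1, with 1.12 for repo, 1.21 for gcm2 and 0.893 for gcm. At 18-22 h the ratio was 1.01 for repo, 2.24 for gcm and 5.64 for gcm2, and from 0.354 to 1.20 for the later genes. The late ratio was above 1 for loco (1.20) and wrapper (1.15) and below 1 for moody, Eaat1, Gs2, nrv2 and Gli.

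**Figure D4:**
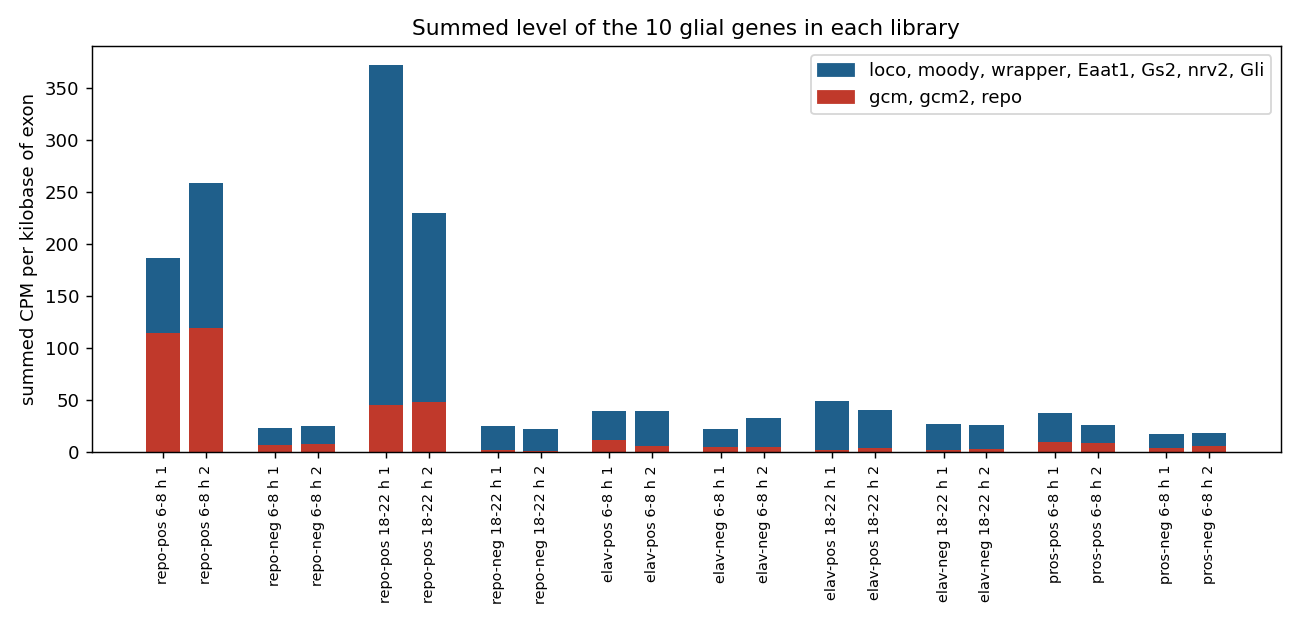
Summed level of the 10 genes in each library, in CPM per kilobase of exon, with gcm, gcm2 and repo in red and the 7 later genes in blue. The 4 repo-positive libraries reach 187 to 372 and the other 16 stay between 17.1 and 49.5.

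In the early elav sort 1 of the 10 was called, a share near the 8.98% of all genes called in either direction. The fractions did not overlap for 4 of the 10, a share not counted over all genes, and 5 had an unadjusted p under 0.05. Of the 5, repo and nrv2 were higher in elav-positive cells, and loco, moody and Gli were lower there and not called. The difference was -1.01 ± 0.35 for loco (adjusted p = 0.077) and -1.24 ± 0.57 for moody (adjusted p = 0.202). For Gli it was -0.96 ± 0.43 (adjusted p = 0.187). The called gene was repo, at 15.7 and 13.1 CPM in elav-positive cells and 3.86 and 7.22 CPM in elav-negative cells. The elav-positive libraries were the higher, by 1.32 ± 0.36 (adjusted p = 0.0228). The call ended without elav-positive replicate 1 (1.17, adjusted p = 0.0965), without elav-negative replicate 1 (0.95, adjusted p = 0.228), or on these libraries alone (1.41, adjusted p = 0.156). The gene nrv2 gave 75.1 and 89.7 CPM in elav-positive and 28.2 and 46.0 CPM in elav-negative cells, which did not overlap. Its difference was 1.15 ± 0.40 and not called (adjusted p = 0.0792), but it was called by DESeq2 (1.22, adjusted p = 0.026), with no filter (1.33, adjusted p = 0.0254), with total-count scaling (1.86, adjusted p = 0.0104) and with a replicate block (1.18, adjusted p = 0.0297).

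At 18-22 h the elav sort called 2 of the 10, against 14.1% of all genes. The fractions did not overlap for 5, a share again not counted over all genes. The gene loco was lower in elav-positive cells, at 8.01 and 8.56 CPM against 26.5 and 31.7 CPM, a difference of -1.81 ± 0.35 (adjusted p = 0.00144). The gene nrv2 was higher there, at 131 and 95.2 CPM against 26.3 and 26.4 CPM, a difference of 2.10 ± 0.39 (adjusted p = 0.00127). Both calls held without any library. In their nrv2 level both the early and the late elav-positive libraries overlapped the early repo-positive ones, and for no other member did an elav-positive group reach a repo-positive one at 6-8 h. At 18-22 h repo gave 4.62 and 6.36 CPM in elav-positive cells and 3.97 and 5.31 CPM in elav-negative cells, which overlapped.

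In the pros sort edgeR called 0 of the 10, with 2 at an unadjusted p under 0.05 and 1 by DESeq2, against 2.46% of all genes. The gene nrv2 gave 1.40 ± 0.40 (adjusted p = 0.0717), at 51.8 and 35.1 CPM in pros-positive and 15.5 and 17.4 CPM in pros-negative cells. The gene repo gave 0.94 ± 0.37 (adjusted p = 0.18). DESeq2 passed nrv2 (1.36, adjusted p = 0.0274). The 10 values had a median of 0.93, beside -0.06 over all genes tested.

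The difference between sorts was tested directly. At 6-8 h the repo-sort difference exceeded the elav-sort difference for 4 of the 10 genes, where 0.776% of all genes were called in that direction and 1.45% in either. These were repo (by 4.17 ± 0.50), loco (2.76 ± 0.49), moody (4.56 ± 0.80) and Gli (2.87 ± 0.60). In the late stage it did so for 6 of the 10, where 1.48% were called in that direction and 6.07% in either, namely repo (5.20 ± 0.51), loco (2.06 ± 0.49), moody (4.85 ± 0.79), Eaat1 (5.26 ± 1.25), Gs2 (6.09 ± 1.31) and Gli (4.00 ± 0.59). Against the pros sort at 6-8 h it did so for 3, where 1.54% were called in that direction and 2.2% in either, namely repo (4.55 ± 0.51), loco (2.02 ± 0.48) and moody (3.46 ± 0.79). For nrv2 the repo sort exceeded the elav sort by 1.05 ± 0.56 at 6-8 h and by 1.19 ± 0.56 at 18-22 h, neither called. Without both elav libraries of replicate 2 at 6-8 h, 1 of the 4 remained called, repo (3.46, adjusted p = 0.0267).

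These differences between sorts rested on single libraries to different degrees. Those of repo held in every fit without 1 library in all 3 comparisons, as did loco in the early elav comparison and moody and Gli in the late one. In the early elav comparison moody was not called without repo-negative replicate 1 (4.06, adjusted p = 0.0516) or elav-negative replicate 2 (2.87, adjusted p = 0.151), and Gli was not called without any 1 of 5 libraries (adjusted p up to 0.146). Scaling by total count ended the early calls of loco (2.15, adjusted p = 0.0818) and Gli (2.15, adjusted p = 0.168) and the late call of loco (1.8, adjusted p = 0.0863). Fits on the libraries of the comparison alone ended the early elav comparison of Gli (2.91, adjusted p = 0.0665) and the pros comparison of loco (2.07, adjusted p = 0.0789). In the late comparison loco was not called without any 1 of 6 libraries (adjusted p up to 0.0859), Eaat1 of 4 (up to 0.113) and Gs2 of 2 (up to 0.093). Against the pros sort, loco was not called without any 1 of 13 libraries (adjusted p up to 0.151) and moody of 5 (up to 0.142).

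The other glial genes were listed with earlier results known. Among 16 further septate junction and barrier genes, the early repo sort called 5 higher in its positive fraction and the late one 8, none lower, where 2.38% and 1.44% of all genes were called higher. They included Mdr65, an efflux transporter of the barrier (4.13 ± 1.00 at 6-8 h), and Nrg, an adhesion protein (2.39 ± 0.35). At 18-22 h they included Lac (3.16 ± 0.34) and sinu (2.78 ± 0.46). The list's median was 1.46 at 6-8 h and 1.92 at 18-22 h. The elav sort also called 3 of the 16 higher at 6-8 h, Nrg among them, where 8.98% of all genes were called. At 18-22 h it called 4 higher and 1 lower, against 14.1%. The pros sort called 1 higher, Nrg, against 2.46%. For the repo sort less the elav sort, edgeR called 0 of the 16 at 6-8 h, against 1.45% of all genes. At 18-22 h it called 3 higher and 2 lower, against 6.07%. Of 13 other transporter and transmitter genes, 5 and 7 were higher, with alrm, an astrocyte gene, at 6.98 ± 0.88 and 6.33 ± 0.60 and Gat, a GABA transporter, at 5.95 ± 0.60 and 6.37 ± 0.53. The medians were 2.22 and 2.20. In the pros sort 2 of the 13 were also called higher, alrm and Gat. Of 11 other fate and signalling genes, 1 and 2 were higher, with htl, a receptor for fibroblast growth factor, in both (2.42 ± 0.43 and 2.86 ± 0.44).

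Between stages, 3.7% of all genes were called in repo-positive cells. Gat was higher at 18-22 h by 2.05 ± 0.51, as were Eaat2, Gabat and Gs1, so 4 of 13 transporter genes rose and none fell. The same list had 4 higher and 2 lower in repo-negative cells, where 11.4% of all genes were called, and 6 higher and 2 lower in elav-negative cells, where 12.2% were. Of the 16 junction genes 1 rose, vari, a scaffold protein, by 2.77 ± 0.51. Of the 11 fate and signalling genes 2 fell, with N, the Notch receptor, at -1.48 ± 0.32 and ttk, a transcription repressor, at -1.43 ± 0.30. These changes were not particular to repo-positive cells. Both N and ttk were also called lower in repo-negative, elav-positive and elav-negative cells, and vari was called in each of these fractions too. Of all genes, 11.4%, 3.02% and 12.2% were called there.

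Markers of other cells were measured beside these results. The 12 neuron markers summed early to 265 and 275 CPM in repo-positive and 126 and 147 CPM in repo-negative cells. In the positive fraction 5 of them were called higher and none lower, where 2.38% of all genes were called higher. The 5 included onecut, Syt1, fne and futsch, and the median of the 12 was 1.68. At 18-22 h the neuron markers summed to 407 and 456 CPM against 590 and 532 CPM. There edgeR called 0 of the 12, against 2.31% of all genes in either direction. The 11 hemocyte markers in the files, of blood cells in which gcm and gcm2 also act, summed early to 39.0 and 44.8 CPM in repo-positive and 88.8 and 129 CPM in repo-negative cells. Their late sums were 366 and 208 CPM against 4092 and 1937 CPM. The hemocyte marker He was at 0 in both libraries of 8 of the 10 groups, with counts only in the late repo-negative and elav-negative groups. Of 10 hemocyte markers tested, the early repo sort called 2 lower in its positive fraction (Pxn and Col4a1) and the late one 5, none higher, where 3.36% and 2.31% of all genes were called in either direction. The part of neurons in the early repo-sort differences was not tested.

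Which genes ran most like the members was read from the mean log2 level over the 10 groups, among 4895 genes, as a description of groups that share sorts and stages. For repo they were CG11670 (Pearson r = 0.961), Naa60 (0.944), pdm3 (0.937), Wdfy2 (0.930) and Pgm2a (0.929). For gcm they were CG8149 (0.924), fs(1)K10 (0.914), OstDelta (0.911), alt (0.902) and Akap200 (0.879). For nrv2 they were Fas2 (0.955), Nrg (0.954), CG42342 (0.946), hts (0.941) and Dg (0.934). Among the members, repo and wrapper gave 0.972 and gcm and gcm2 0.865, while gcm and nrv2 gave 0.106 and loco and nrv2 -0.03.

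The authors' deposited tables of gene and microRNA pairs also give a log2 fold change for some of the genes, from gene libraries not analysed here. Each such table lists only genes paired with a microRNA of opposite sign, and its direction was read from repo being positive in the repo sort. The sign of repo in the repo sort was thus fixed by that reading. The gene values listed for the members were at least 1.01 in size, with the authors' adjusted p at most 0.0235. In 7 matched comparisons the authors' deposited tables list the members 37 times, and all 37 had the same sign as the fragments. Of these 37 fragment values 20 passed the test, and 25 were smaller in size than the value in the authors' deposited tables. Because small gene changes are absent from the list, both the shared sign and the count of smaller values describe selected entries only. For repo the authors' deposited table gives 8.32 in the repo sort at 6-8 h, where the fragments gave 5.49, and 3.96 in the elav sort, where they gave 1.32. For loco in the repo sort at 18-22 h the authors' deposited table gives 1.79, where the fragments gave 0.25. For gcm between stages in repo-positive cells the authors' deposited table gives -3.67, where the fragments gave -3.77. For nrv2 in the elav sort at 18-22 h the authors' deposited table gives 1.41, where the fragments gave 2.10.

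**Figure D5:**
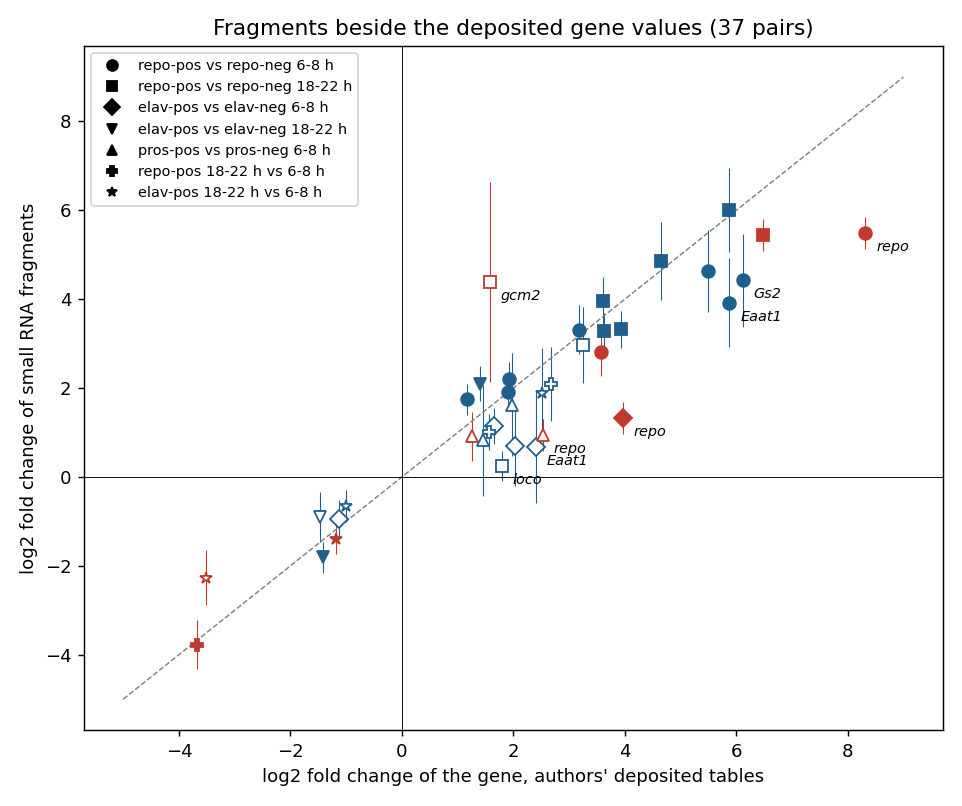
Log2 fold change of the gene in the authors' deposited tables on the horizontal axis and of its small RNA fragments on the vertical axis, with bars for the standard error of the fragments, filled points for an adjusted p under 0.05, red for gcm, gcm2 and repo, a symbol for each comparison and a dashed line of equality. All 37 points lie in the lower left or upper right, and the points of repo lie below the line in the repo and elav sorts at 6-8 h.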

How the data were processed

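The deposited values are expected counts (fractional) per gene and hairpin, which the authors made, per the file headers, by counting reads with featureCounts over exons of the Ensembl release 85 annotation, on the forward strand, letting a read count for overlapping features and splitting reads with several alignments. Per the submitters' processing notes, Bowtie 1.1.2, SAMtools 1.8, featureCounts 1.5.1 and DESeq2 were used with BDGP6 (dm6). Reads were 51 bases, and 91.5% of the members' values were not whole. The authors' deposited tables also give log2 fold changes and adjusted p-values of genes, printed as given.

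Here 237 hairpins and 59 features sharing exon bases with one were left out. Values were rounded and fitted with edgeR 4.0.16 (R 4.3.3), TMM factors, filterByExpr and quasi-likelihood tests over all 20 libraries, with Benjamini-Hochberg adjustment over 11726 genes within each of 14 comparisons. The common biological coefficient of variation was 0.511 on 10 residual degrees of freedom. The code was tested on simulated counts. Levels are edgeR-scaled CPM. Within each other list, up to 4 called genes with at least 5 CPM in the higher group were open to naming, largest difference first. For likeness, 5 genes were taken for each of repo, gcm and nrv2. Members and lists were chosen with earlier results of these data known. No sequences are shown. Alternatives were scaling, filter, rounding, DESeq2 1.42.0, subset fits, a replicate block and leaving out libraries.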

Additional observations from a re-analysis of the deposited data

Results flagged for a closer look

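The repo-sort difference exceeded that of another sort by a direct test for 13 combinations of gene and comparison, and this is what drew attention to them. On the log2 scale, against the elav sort at 6-8 h the excess was 4.17 for repo, 2.76 for loco, 4.56 for moody and 2.87 for Gli. Against the elav sort at 18-22 h it was 5.20 for repo, 2.06 for loco, 4.85 for moody, 5.26 for Eaat1, 6.09 for Gs2 and 4.00 for Gli. Against the pros sort at 6-8 h it was 4.55 for repo, 2.02 for loco and 3.46 for moody. The sort marker repo was called in all 3 of these comparisons in every fit without 1 library. For loco at 18-22 h the repo-sort difference was 0.25 and the elav-sort difference -1.81.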

How the results depend on the processing

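No value of a called gene reversed under any alternative. Over 4189 single values under alternatives, 4035 kept their side of the threshold, 96 lost a call and 58 gained one. Changes of sign among values not called were not counted. They did occur, as for gcm in the elav sort at 6-8 h (0.33, and from -1.02 to 1.09 without 1 library). Leaving out 1 library in turn, the count of members called ran from 2 to 9 in the repo sort at 6-8 h and 4 to 8 at 18-22 h, and from 0 to 1 in the elav sort at 6-8 h and 0 to 1 in the pros sort. Between stages it ran from 1 to 3 in repo-positive, 0 to 3 in elav-positive cells and 0 to 1 in the elav-negative fraction. For the repo sort less the elav sort it ran from 2 to 4 at 6-8 h and 3 to 7 at 18-22 h, and less the pros sort from 1 to 4.

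Scaling by total count, which moved the median of all genes by -0.58 to 0.68 on the log2 scale, gave 2 members in the elav sort at 6-8 h, 1 between stages in repo-positive, 2 in the elav-positive and 1 in the elav-negative fraction, and 2 for repo less elav at 6-8 h. With no filter on low counts the elav sort at 6-8 h gave 2, the pros sort 1, and the stages 4 in repo-positive, 3 in the elav-positive and 2 in the elav-negative fraction. DESeq2 gave 2 in the elav sort at 6-8 h, 1 in the pros sort and 2 between stages in elav-positive cells, as did unrounded values for the last. Fits on the libraries of a comparison alone gave 0 in the elav sort at 6-8 h, 0 between stages in the elav-positive and 1 in the elav-negative fraction. They gave 10 and 8 in the repo sort at 6-8 h and 18-22 h, 3 between stages in repo-positive cells, 3 for repo less elav at 6-8 h, 7 at 18-22 h and 2 for repo less pros. Without both elav libraries of replicate 2 at 6-8 h, repo less elav at 6-8 h gave 1. The causes were not tested.

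The replicate numbers were not shown to pair the fractions, with replicate differences correlating at 0.02 to 0.21. With a replicate block the elav sort at 6-8 h gave 2 and the pros sort 1, and the repo sort gave 9 and 7. Counts of gcm2 near 0, and 2 libraries a group, limit what could be detected.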
